A study of Mus musculus with 2 samples.

Results

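The genes described here are 9 genes of iron storage, transport and control in the mouse hippocampus: Fth1, Ftl1, Trf, Tfrc, Slc11a2, Slc40a1, Cp, Aco1 and Ireb2. They were chosen by gene symbol and joined between the transcript and gene quantifications by gene identifier, and they are 9 of 55536 annotated genes, of which 22028 are protein-coding. Total RNA was sequenced in 2 libraries of hippocampus. The mice were males of strain B6CASTF1/J, F1 hybrids between C57BL/6J and CAST/EiJ, aged 2 months. The tissue label reads layer of hippocampus. Each library started from 300 ng of RNA and carried ERCC spike-in RNAs. The libraries bear biological replicate numbers 1 and 2 and form 1 group with no treatment, so levels were described and no condition was compared. Both carry the same strain-level donor label, and nothing else says that they came from separate animals, so the spread between them may be technical.

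Iron enters brain cells bound to transferrin, which is taken up by the transferrin receptor, and the divalent metal transporter then moves the iron out of the endosome. Inside the cell, surplus iron is oxidised and kept in the ferritin shell, which is built of heavy and light chains, while ferroportin exports iron with the help of the ferroxidase ceruloplasmin. The iron regulatory proteins, encoded by Aco1 and Ireb2, bind a short hairpin called the iron-responsive element. When iron is scarce they block translation where the hairpin lies in the 5′ untranslated region, as in the ferritin mRNAs, and protect the mRNA from decay where hairpins lie in the 3′ untranslated region, as in the receptor mRNA. In brain, transferrin mRNA is known mainly from oligodendrocytes, which need iron to make myelin.

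The total expected count, the estimated number of reads assigned to the annotation, was 31422827 in replicate 1 and 31303010 in replicate 2. The replicates differed by more than sampling noise, with a chi-square of 4.09 per degree of freedom over genes. Of lists of 10 marker genes each, all 10 were detected at 1 TPM (abundance per length, scaled to a fixed sum) or more in both libraries for hippocampal neurons, oligodendrocytes, astrocytes, microglia and endothelial cells. Of 10 choroid plexus markers 3 were detected, and of 8 liver markers 0. Reads of both parental strains were assigned to the C57BL/6J reference, and the effect of this on the 9 genes was not measured.

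The iron-responsive element is known from mRNAs of several members, the ferritins and the transferrin receptor among them. Matches in those mRNAs therefore follow from choosing iron genes, and the counts below are no test of enrichment. Each annotated transcript was searched on its sense strand for a C, 5 bases of upper stem, the loop letters CAGTG with 1 further base, and 5 bases of which at least 4 pair with the first 5 (Watson-Crick or G with T). Such a match was held by 5 of the 9 genes, against 16.1% of 12710 detected protein-coding genes. With all 5 pairs required the count was 4 of 9, against 2.18%. A match of letters is a description and not a measured binding site. The 27 bases of each match are shown because the loop and its flanking stem are what the regulatory proteins recognise. The loop is in capitals, and the letters are those of GENCODE M21 transcripts, written with T for U.
Fth1: tcctgcttcaaCAGTGCttgaacggaa
Ftl1: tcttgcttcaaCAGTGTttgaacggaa
Slc40a1: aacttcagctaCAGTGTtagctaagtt
Slc11a2: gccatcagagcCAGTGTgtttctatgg
Tfrc site 1: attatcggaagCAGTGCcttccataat
Tfrc site 2: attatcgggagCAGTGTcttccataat
Tfrc site 3: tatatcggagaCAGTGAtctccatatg
Tfrc site 4: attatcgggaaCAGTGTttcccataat
In mm10 the Fth1 match lies at chr19:9982733-9982759 on the plus strand, the Ftl1 match at chr7:45459780-45459806 on the minus strand and the Slc40a1 match at chr1:45925466-45925492 on the minus strand, all in a 5′ untranslated region. The Slc11a2 match, with 4 pairs, lies at chr15:100395154-100395180 on the minus strand in the 3′ untranslated region of Slc11a2-205. All 4 Tfrc matches lie in the 3′ untranslated region of Tfrc-201 on the plus strand, the outermost at chr16:32631220-32631246 and chr16:32631711-32631737. No match was found in the annotated transcripts of Trf, Cp, Aco1 or Ireb2.

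All 9 genes were detected in both libraries, against 57.7% of 22028 annotated protein-coding genes. Their mean levels spanned a ratio of 374, and ferritin heavy chain stood far above the rest. The median of the 9 means was 25.5 TPM, beside 14.7 TPM over the detected protein-coding genes. In order of mean level the genes were Fth1, Trf, Ftl1, Tfrc, Slc11a2, Ireb2, Aco1, Slc40a1 and Cp. In tissue RNA of this kind, fewer cells of a type and less RNA per cell cannot be told apart.

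**Figure D1:**
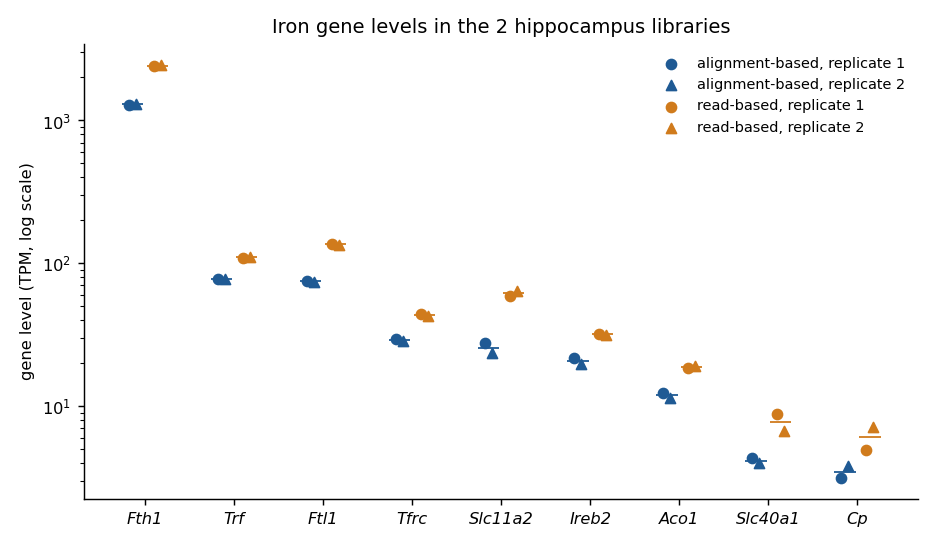
Gene level in TPM on a log axis for the 9 iron genes in each library. Blue marks the alignment-based and orange the read-based quantification, circles replicate 1, triangles replicate 2 and short lines the mean of both. Fth1 lies near 1298 TPM and Cp near 3.48 TPM in the alignment-based values, and the read-based points lie higher for every gene.

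The ranges of the 2 libraries did not overlap for any of the 8 neighbouring pairs in that order. The order was less firm by other measures. The deposited intervals of TPM within a library, whose level is not stated, overlapped for 4 of the 8 pairs, namely Trf and Ftl1, Tfrc and Slc11a2, Slc11a2 and Ireb2, and Slc40a1 and Cp. In the read-based quantification, which assigns reads to transcripts without an alignment, Ftl1 stood above Trf, Slc11a2 stood above Tfrc, and the ranges of Slc40a1 and Cp overlapped. The wide steps, from Fth1 to Trf, Ftl1 to Tfrc, Ireb2 to Aco1 and Aco1 to Slc40a1, were apart by all 3 measures.

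Fth1 (chr19:9980598-9985098, plus strand), which encodes the ferritin heavy chain with the ferroxidase centre, measured 1291 TPM (replicate 1) and 1306 TPM (replicate 2). The mean was 1298 ± 10.3 TPM (SD, n = 2). It rested on 23591 and 24991 expected counts. The libraries gave almost the same level, and the gene ranked 13 among 12710 detected protein-coding genes. The neighbours in mean level were the cytoskeletal actin gene Actb at 1351 ± 38.7 TPM, next above, and the elongation factor gene Eef1a1 at 1260 ± 14.5 TPM, next below. Nearly all of the level lay in the full-length transcript Fth1-201, with 95% and 97.9% of the gene's TPM. The read-based quantification gave that transcript 86.6% and 85.7% and placed 11.3% and 12.4% on Fth1-203, which also encodes protein and holds the same hairpin match.

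Ftl1 (chr7:45457944-45459884, minus strand), the light chain that helps iron mineralise inside the shell, measured 75.7 TPM and 73.9 TPM, a mean of 74.8 ± 1.29 TPM, on 1430 and 1476 expected counts. Heavy chain mRNA exceeded light chain mRNA 17.1-fold in replicate 1 and 17.7-fold in replicate 2 on this per-length scale, and 17.8-fold on average in the read-based values. This ratio depends on how reads are shared with copies of the light chain gene. Of the 31-base words in Ftl1 transcripts, 57.7% also occur in other genes, against 3.24% for Fth1.

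The main copy was Ftl1-ps1 (chr13:74399694-74407346, plus strand), which the annotation lists as protein-coding despite its name. It shares 63.5% of its own words with Ftl1, and its match at chr13:74406429-74406455 has the same 27 letters as that of Ftl1. Expected counts on Ftl1-ps1 were 1122 and 1287, which is 78.5% and 87.2% of the counts on Ftl1 itself. Its level was 62.9 ± 4.89 TPM in the alignment-based values and 195 ± 9.04 TPM in the read-based values, where it stood above Ftl1 at 136 ± 1.58 TPM. The processed pseudogene Ftl2-ps held 61.0 and 61.7 counts. By shared words Ftl1 has 4 copies, 1 of them a microRNA gene that lies inside Ftl1 and held 0 expected counts. Taken as 1 sum, Ftl1 and these 4 genes reached 144 ± 3.54 TPM, with 45.3% and 47.7% of the counts on the 4, and Fth1 exceeded that sum 9.04-fold. In the read-based values the same sum was 333 ± 8.86 TPM, beside 2426 ± 47.0 TPM for Fth1. How many reads truly came from each locus was not tested.

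Ftl1-201 carried 88.8% and 96.6% of the gene's TPM. In replicate 1 the intron-retaining transcript Ftl1-206 took 4.86% on 41.8 counts, and in replicate 2 it was listed at 0. The read-based shares showed the same split, with 11.1% for Ftl1-206 in replicate 1.

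Trf (chr9:103204001-103230444, minus strand), which encodes the iron carrier transferrin, measured 77.2 TPM and 78.2 TPM, a mean of 77.7 ± 0.728 TPM, on 2875 and 2869 expected counts. It ranked 1135 among detected protein-coding genes, and its nearest neighbours in level were Jund at 77.9 ± 6.12 TPM and Psmb6 at 77.7 ± 1.31 TPM. Transferrin is secreted by liver in large amounts, and the liver markers in these libraries summed to 0.69 and 1.18 TPM. Which tissue or cells the Trf reads came from was not tested. The summed level of the 10 oligodendrocyte markers was 1068 TPM in replicate 1 and 961 TPM in replicate 2. Of these, 7 of 10 were lower in replicate 2, none of them by 1.2-fold. Their median log2 ratio was -0.15, beside -0.04 over 13916 genes and 0.02 for Trf. In counts scaled by the trimmed mean of M values, the markers ran from -0.205 for Mobp to 0.113 for Opalin, and Trf was at 0.005. Whether Trf followed those cells was not tested.

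Most Trf reads belonged to the full-length mRNA. Trf-201 held 91.7% and 90.5% of the gene's expected counts. Its share of TPM, 61.5% and 58.1%, was lower because the retained-intron transcript Trf-209, only 433 bases long, was given 208 and 233 counts and with them 36.0% and 38.6% of the TPM. The read-based quantification put 0.0231 and 0.101 counts on Trf-209. It gave Trf-207 11.5% and 19.3% and Trf-205, marked for nonsense-mediated decay, 10.7% and 5.36% of the TPM. Trf-203, a coding model of 2339 bases, received 209 and 117 counts there and was listed at 0 by alignment. The retained-intron share of Trf was thus 38.1% ± 1.91 by alignment and 3.96% ± 0.478 from the reads, and no firm share can be given. An overlapping protein-coding gene on the same strand, Gm20425, shares 68.4% of its words with Trf and held 290 and 192 counts, so 9.16% and 6.26% of the summed counts lay outside Trf.

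Tfrc (chr16:32608920-32632794, plus strand), the transferrin receptor, measured 29.5 TPM and 28.7 TPM, a mean of 29.1 ± 0.502 TPM, on 2299 and 2332 expected counts. Ligand mRNA exceeded receptor mRNA 2.62-fold and 2.72-fold, with the reads given to Gm20425 left out. None of the 31-base words of Tfrc occurs in another gene. Its neighbours in level were Rnf40 at 29.1 ± 1.10 TPM and Atp1b3 at 29.1 ± 0.559 TPM.

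The coding transcript with the 4 hairpin matches, Tfrc-201, carried 86.1% and 87.7% of the receptor's counts and 62.4% and 64.4% of its TPM. A retained-intron transcript, Tfrc-204, holds the same 4 matches and had 2.68% and 3.41% of the TPM. The shorter coding transcript Tfrc-202, which ends without the matched region, held 18% and 13.7% of the TPM on 210 and 161 counts. Tfrc-205, a retained-intron transcript of 571 bases, held 13.4% and 13.2% on 41.9 and 41.3 counts. Read-based shares were 69.5% ± 3.19 for Tfrc-201, 13.9% ± 2.36 for Tfrc-202 and 14.9% ± 0.786 for Tfrc-205. For Tfrc-204 the read-based share was lower, at 0.578% and 0.529%.

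Slc11a2 (chr15:100387898-100425072, minus strand), the divalent metal transporter DMT1, measured 27.5 TPM and 23.5 TPM, a mean of 25.5 ± 2.84 TPM, on 1117 and 1059 expected counts. The 2 libraries differed more here than for the other importers, and the direction depended on the quantification: the log2 ratio of replicate 2 over replicate 1 was -0.23 by alignment and 0.13 in the read-based values. The read-based mean was 61.6 ± 3.78 TPM, which is 2.42 times the alignment-based mean, against a median of 1.69 over genes and a 95th percentile of 2.48. Nearest in level were Katnal1 at 25.5 ± 0.191 TPM and Odr4, listed at 25.5 TPM in both libraries.

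DMT1 mRNA is known in forms that end with or without an iron-responsive element. The form with the match, Slc11a2-205, took 67.3% and 67.3% of the gene's expected counts, and the full-length form that skips to a later end, Slc11a2-201, took 16.8% and 16.1%. Set against each other alone, the form with the match made up 73.1% and 73.9% of their TPM by alignment, and 72.9% and 75.3% in the read-based values. This split and the share of counts on Slc11a2-205 were close in both libraries and both quantifications, the latter at 69.1% and 68.1% in the read-based values.

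Within the whole gene the picture was blurred by short transcripts. Slc11a2-205 was 28.1% and 30.5% of the gene's TPM, and short annotated models with few reads took large shares per length. Slc11a2-202, of 709 bases, held 7.82% and 25.7% on 29.5 and 85.0 counts, and Slc11a2-207, of 389 bases, held 24.1% and 7.41% on 43.2 and 11.7 counts. The retained-intron transcript Slc11a2-206 held 22.1% and 18.3%. Slc11a2-208, of 387 bases, was listed at 0 by alignment but headed the read-based list with 28.1% and 30.1% on 27.3 and 31.1 counts. By alignment, the most abundant transcript was the same in both libraries for all 9 members, against a change in 11.2% of 11503 genes with several transcripts. Between the quantifications, the most abundant transcript by mean TPM share of both libraries differed for Slc11a2, 1 of 9 against 24.3% of those genes. In replicate 1 alone it differed for Slc40a1 as well.

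**Figure D2:**
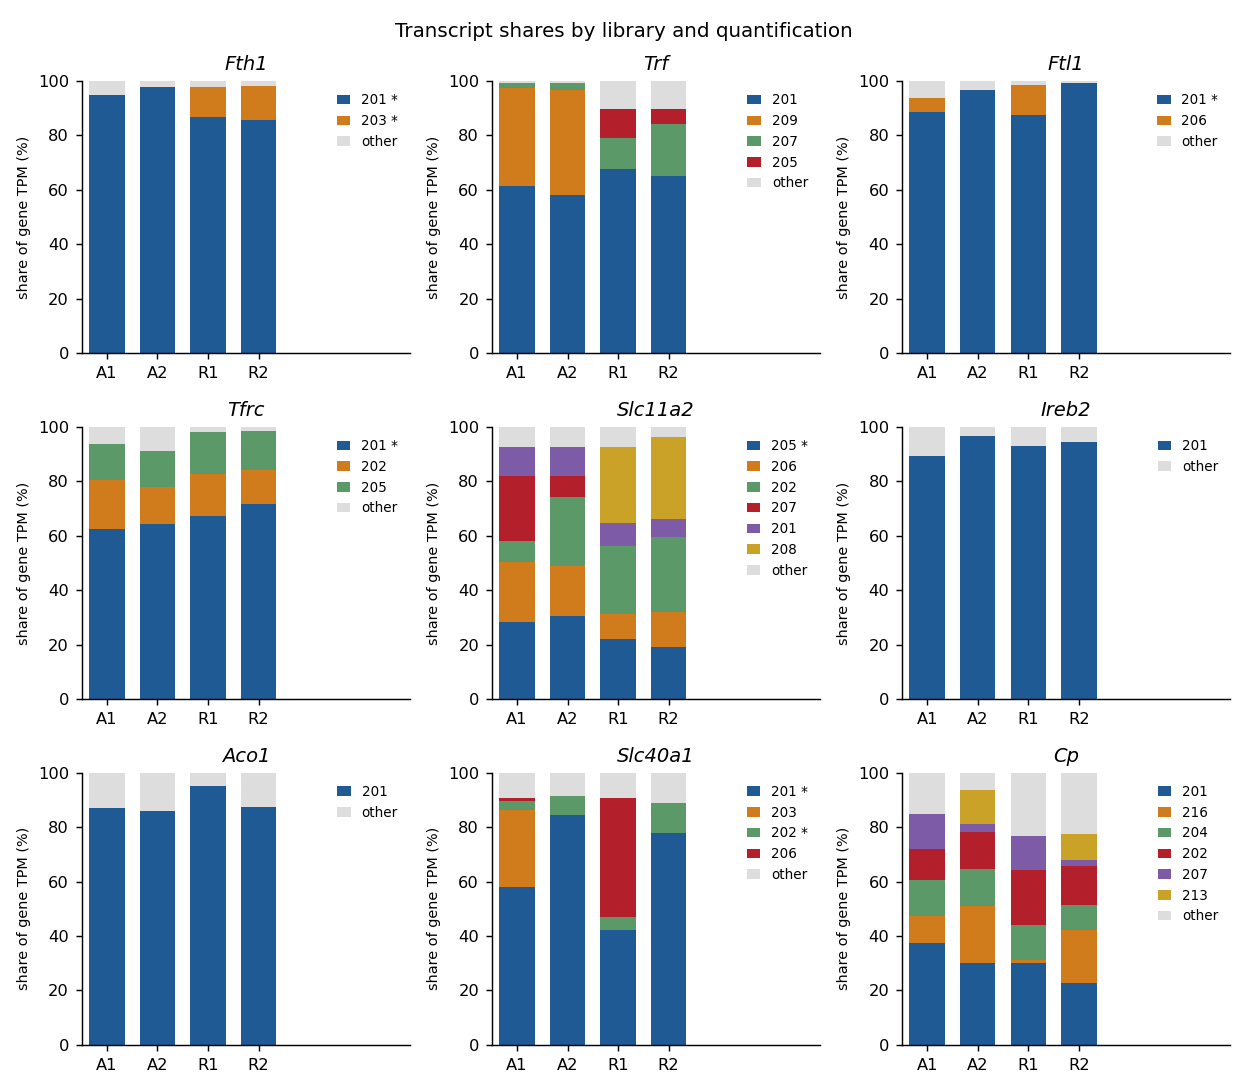
Share of the gene's TPM (%) in each transcript that reached 10% in any bar, with the rest in grey. A1 and A2 are the alignment-based values of replicates 1 and 2, R1 and R2 the read-based values, and an asterisk marks transcripts with a hairpin match. Fth1, Ftl1, Ireb2 and Aco1 are dominated by 1 transcript in every bar, while Slc11a2 and Cp are spread over several and Slc40a1-201 differs between A1 (58.1%) and A2 (84.5%).

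Slc40a1 (chr1:45908068-45926523, minus strand) encodes ferroportin, the iron exporter. It measured 4.33 TPM and 4 TPM, a mean of 4.17 ± 0.233 TPM, on 219 and 291 expected counts. It ranked 10464 among detected protein-coding genes, beside Pcdhb7 and Bag2, both at 4.17 TPM. Here counts and TPM put the 2 libraries in opposite orders. Scaled by the trimmed mean of M values (TMM), the counts of replicate 2 were higher by a log2 ratio of 0.42, and scaled by spike-ins by 0.36, yet the log2 ratio of TPM was -0.11, and -0.40 in the read-based values.

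The difference sat with a few reads on short models. The gene's effective length, by which counts are divided, was 2247 bases in replicate 1 and 3148 bases in replicate 2. The coding models Slc40a1-203, Slc40a1-205 and Slc40a1-206, start 937 bases upstream of Slc40a1-201 and end early in the annotation. Together they received 8.84 counts in replicate 1 and were listed at 0 in replicate 2, yet these counts made up 29.3% of the TPM of replicate 1. The read-based quantification put 8.66 counts and 44.0% of the TPM of replicate 1 on Slc40a1-206 alone, where the alignment-based values put most on Slc40a1-203. The upstream start is known as a form that lacks the iron-responsive element, and here these coding models held 4.04% of the gene's counts in replicate 1 and 0% in replicate 2, where a count of 0 allows up to 1.03%. The intron-retaining Slc40a1-202, which begins in the same place to within 4 bases but runs through the match, held 4.11% and 6.03% of counts.

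By counts, transcripts with the match held 94.9% and 99.5% of Slc40a1 in the 2 libraries, and Slc40a1-201 held 84.5% and 87.7%. By TPM the same transcripts held 65.2% and 96.3%, and by the read-based TPM 52.1% and 94.9%. The retained-intron transcript Slc40a1-202, which also spans the match, accounted for 3.46% and 7% of TPM.

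**Figure D3:**
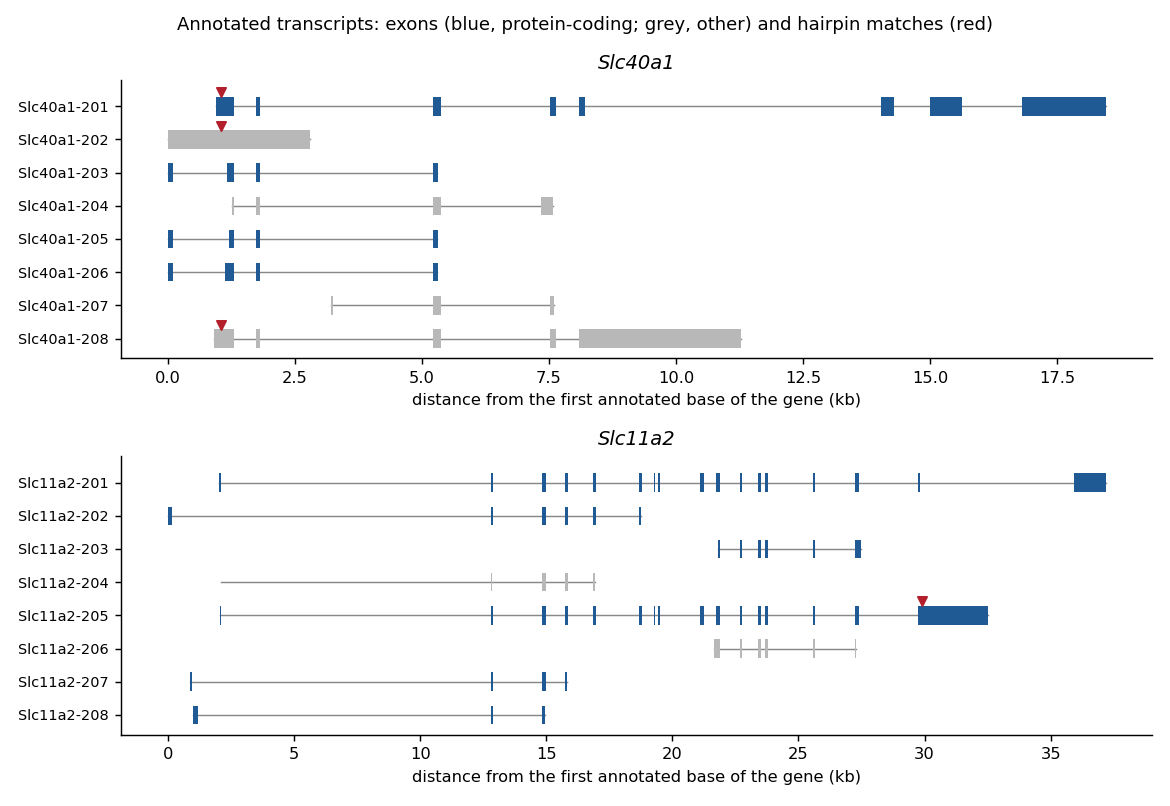
Annotated transcripts of Slc40a1 and Slc11a2, drawn by distance from the first annotated base of each gene (kb). Boxes are exons, blue for protein-coding and grey for other transcripts, and red triangles are hairpin matches. In Slc40a1 the models that start 937 bases upstream of Slc40a1-201 splice past the match, and in Slc11a2 the match lies in the last exon of Slc11a2-205, in a stretch that Slc11a2-201 lacks.

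Cp (chr3:19957054-20009145, plus strand) encodes ceruloplasmin, the copper ferroxidase that loads exported iron onto transferrin. It had the lowest mean level of the 9 genes, 3.13 TPM and 3.82 TPM with a mean of 3.48 ± 0.488 TPM, on 215 and 237 expected counts. Its rank was 10874, next to 1700088E04Rik at 3.48 ± 0.170 TPM and the endothelial cadherin gene Cdh5 at 3.47 ± 0.361 TPM. The gene overlaps Hps3 on the opposite strand, which held 526 and 495 counts. Whether counting used strand is not given in the sources used here, so reads in the overlap cannot be assigned with certainty.

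Ceruloplasmin was spread over many transcripts. Cp-201 was the largest with 37.5% and 30.03% of TPM, and the other long coding models were Cp-204 with 13.1% and 13.8% and Cp-202 with 11.2% and 13.6%. Ceruloplasmin is known in a secreted form and in a form anchored to the membrane, made by alternative ends of the coding sequence. The models that share the coding end of Cp-201 held 68% and 67.4% of the counts, and those that share the coding end of Cp-202 held 14.4% and 19.9%. In the read-based values these shares of counts were 56% and 57.0% against 31.1% and 31.8%, so the split moved with the quantification. Which end gives which protein form was not assigned here.

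Retained-intron models held 34.1% ± 5.74 of Cp TPM by alignment and 31.2% ± 4.81 in the read-based values, against a median of 4.17% over 11503 genes. In counts this was 17.6% and 10.03%. A retained-intron share of 30% or more was found in 11.5% of those genes. Of the 9 members, Cp and Trf passed it by alignment. Single models shifted between the libraries: Cp-216 was 9.94% and 20.9% on 4.09 and 10.9 counts, Cp-207 was 13.1% and 2.87% on 16.4 and 4.50 counts, and Cp-213 was listed at 0 in replicate 1 and held 12.5% in replicate 2 on 6.36 counts.

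Both genes for iron regulatory proteins were detected at moderate levels, and Ireb2 stood above Aco1. Ireb2 (chr9:54863789-54912530, plus strand), whose protein is broken down when iron is plentiful, measured 21.7 TPM and 19.6 TPM, a mean of 20.7 ± 1.51 TPM, on 2573 and 2540 expected counts. Aco1 (chr4:40143081-40198338, plus strand), whose protein switches between a cytosolic aconitase and an RNA-binding form, measured 12.3 TPM and 11.4 TPM, a mean of 11.9 ± 0.651 TPM, on 916 and 867 expected counts. Ireb2 exceeded Aco1 1.76-fold in replicate 1 and 1.72-fold in replicate 2, and 1.68-fold on average in the read-based values. Closest in level were Sesn1 and Lingo2 for Ireb2, and 1600014C10Rik and Xndc1 for Aco1.

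Each regulator was carried by 1 full-length transcript. Ireb2-201 held 96.4% and 97.7% of counts and Aco1-201 held 98.3% and 97.8%. Their TPM shares were 93.1% ± 5.11 and 86.5% ± 0.562. None of the words of Aco1 and 0.693% of those of Ireb2 occur in other genes.

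Between the 2 libraries most members were close. In TPM, 0 of 9 were at least 2-fold apart, against 0.273% of 13916 genes with 50 or more expected counts in both libraries, and 1 of 9 was at least 1.2-fold apart, against 15.6%. That gene was Cp, at 1.22-fold and a log2 ratio of 0.29. Its log2 ratio was 0.15 in TMM-scaled counts, 0.09 in spike-in-scaled counts and 0.53 in the read-based TPM. The gene past 1.2-fold in scaled counts was Slc40a1 instead, at 1 of 9 against 8.71% of genes with TMM and 10% with spike-ins, and in the read-based TPM it was Cp and Slc40a1, 2 of 9 against 18.5%. On log2(TPM + 1) the count was 0 of 9, against 9.95%.

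The deposited intervals of Cp ran from 3.49 to 5.66 TPM in replicate 1 and from 3.66 to 6.43 TPM in replicate 2, and those of Slc40a1 from 4.07 to 7.35 TPM and from 4.14 to 6.71 TPM. Both pairs overlapped. The intervals belong to a posterior estimate, and 4 of the 18 member values lay outside their own interval: Fth1 in both libraries, Slc40a1 in replicate 2 and Cp in replicate 1. The choroid plexus markers, from a tissue known to make transferrin and ceruloplasmin, summed to 16.9 TPM in replicate 1 and 30.3 TPM in replicate 2, of which Ttr was 10.6 and 23.1 TPM, and their part in the Cp ratio was not tested.

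**Figure D4:**
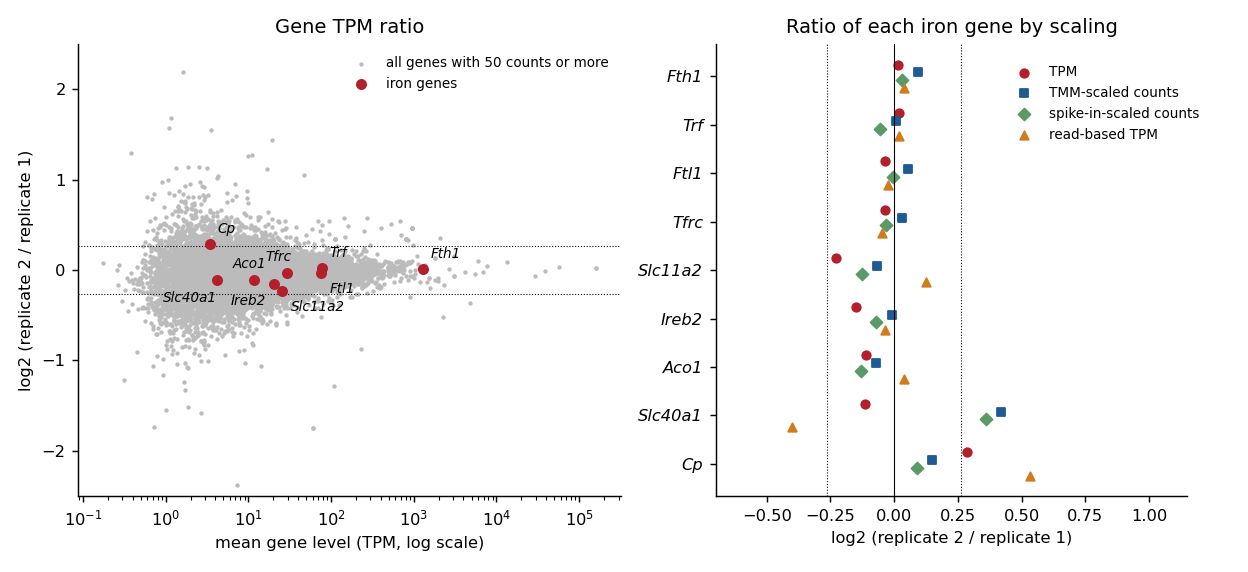
Left, log2 ratio of replicate 2 over replicate 1 in TPM against mean gene level (TPM, log axis) for 13916 genes in grey and the 9 iron genes in red. Right, the ratio of each iron gene in TPM, TMM-scaled counts, spike-in-scaled counts and read-based TPM, with dotted lines at 1.2-fold. Fth1, Trf, Ftl1 and Tfrc stay near 0 by all 4 measures, while Slc40a1 runs from -0.40 to 0.42 and Cp from 0.09 to 0.53.

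Over the 5 genes with a hairpin match, the share of the gene in annotated transcripts that hold it, coding or not, differed by gene. It was 96.6% ± 2.03 of TPM for Fth1, 93.4% ± 5.54 for Ftl1, 80.7% ± 22 for Slc40a1, 66.4% ± 1.92 for Tfrc and 29.3% ± 1.63 for Slc11a2. In the same order, protein-coding transcripts with the match held 96.4%, 92.7%, 71.3%, 63.4% and 29.3% of TPM. The read-based shares over coding and other transcripts were 99.6%, 94.5%, 73.5% ± 30.3, 70.1% and 20.6%. By counts, in replicates 1 and 2, all transcripts with the match held 97.5% and 98.5% for Fth1, 92.5% and 97.7% for Ftl1, 88.8% and 91.1% for Tfrc and 67.3% and 67.3% for Slc11a2. The ferritin shares were high by either unit. The lower TPM shares of Tfrc, Slc40a1 and Slc11a2 stood beside short models that hold few counts. The same search was made in other mRNAs known for such an element. Alas2, the red-cell haem synthesis enzyme, had a match in its 5′ untranslated region. Epas1, a hypoxia-inducible transcription factor, had none in these transcripts. The search allows no extra unpaired base in the upper stem, so it cannot say that Epas1 lacks an element. Of all annotated protein-coding transcripts, 7.75% held a match and 0.961% a match with all 5 pairs.

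The rest of the iron pathway was described with lists that hold 93 distinct genes, the 9 included. Of these 76, or 81.7%, were detected, beside 57.7% of all protein-coding genes. Of the 78 with 50 or more counts, 6 were at least 1.2-fold higher in replicate 2, against 4.93% of all such genes, and 3 were lower, against 10.7%. None was 2-fold apart.

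Of the storage and chaperone genes 5 of 6 were detected. Pcbp2 at 197 ± 7.48 TPM and Pcbp1 at 73.5 ± 1.82 TPM, chaperones that deliver iron to ferritin, and Ncoa4 at 42.9 ± 1.17 TPM, the receptor that sends ferritin to lysosomes, joined the 2 ferritin chains. Mitochondrial ferritin, Ftmt, was listed at 0 counts, a value that leaves room for at most 0.0989 TPM in replicate 1 and 0.0963 TPM in replicate 2 from counting error alone.

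Among uptake and intracellular transfer genes 15 of 20 were detected, with a median of 3.52 TPM. The highest beside Trf were Snx3, which recycles the transferrin receptor, at 79.5 ± 1.17 TPM, and Mcoln1, a lysosomal iron channel, at 30.5 ± 4.4 TPM. Cybrd1, a ferric reductase, was 1.32 and 1.09 TPM, lower in replicate 2 by a log2 ratio of -0.28 and of -0.29 in the read-based values, though of -0.22 in TMM-scaled counts.

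The export list was low throughout. Besides Slc40a1 and Cp it held Heph, a membrane ferroxidase, at 1.97 ± 0.240 TPM, and Hephl1 at 0 counts, with limits of 0.0258 and 0.0252 TPM. All 3 detected ferroxidase and exporter genes lay under 5 TPM in both libraries by alignment. In the read-based values Slc40a1 was at 8.82 and 6.69 TPM, Cp at 4.97 and 7.19 TPM and Heph at 2.70 and 3.37 TPM.

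Of 14 regulation genes 8 were detected, a share near that of all protein-coding genes. Beyond Ireb2 and Aco1, the highest were Skp1a at 193 ± 0.0566 TPM and Fbxl5 at 36.2 ± 0.233 TPM, parts of the ligase that marks the Ireb2 protein for breakdown, and Herc2, a ligase for Fbxl5, at 53.4 ± 2.64 TPM. The hepcidin hormone genes Hamp and Hamp2 and the erythroid signal Erfe, named after their values were seen, had 0 counts in each library. The limits of such a count for Hamp were 0.429 and 0.418 TPM. Bmp6, an inducer of hepcidin, was 1.78 and 2.34 TPM, with a log2 ratio of 0.39. Hfe, a partner of the transferrin receptor, was 1.47 and 1.89 TPM with a log2 ratio of 0.36, but -0.29 in TMM-scaled counts, on 64 and 52 reads.

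In the haem list 18 of 22 genes were detected. Pgrmc1 at 118 ± 3.29 TPM, Lrp1 at 112 ± 7.86 TPM and the first synthesis enzyme Alas1 at 59.9 ± 1.07 TPM were highest. Cd163, Flvcr2, Hpx and Hp, known for handling haem or haemoglobin, were under 1 TPM by alignment. In the read-based values Cd163 and Flvcr2 were above it, at 1.29 ± 0.0794 TPM and 1.27 ± 0.000742 TPM. Past 1.2-fold in both quantifications were Alad at a log2 ratio of 0.31, Alas2 at 0.68 and Blvra at -0.27. In TMM-scaled counts these were 0.38, 0.42 and -0.22, and Alas2 rested on 67 and 89 counts. The red blood cell markers, of which Alas2 is a member, summed to 377 TPM in replicate 1 and 420 TPM in replicate 2. The globin genes among them had log2 ratios from 0.10 to 0.21, beside a median of -0.04 over genes. Only Alas2 itself passed 1.2-fold, and the part of the other markers in its ratio was not tested.

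All 19 iron-sulphur cluster genes were detected, with a median of 17.9 TPM. The chaperone Hspa9 at 70.8 ± 0.445 TPM, the carrier Isca1 at 57.3 ± 0.990 TPM and the scaffold Iscu at 50.8 ± 1.75 TPM were highest. Hscb, a co-chaperone, was 4.61 and 6.30 TPM with a log2 ratio of 0.45, on 73 and 95 counts. All 9 genes of inherited brain iron accumulation were detected as well, with Atp13a2, a lysosomal transporter, at 63.2 ± 0.262 TPM behind the 2 ferritin genes. Of other mRNAs known for an iron-responsive element, Epas1 measured 37.7 ± 3.58 TPM and Alas2 2.10 ± 0.686 TPM.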

How the data were processed

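Total RNA-seq of 2 hippocampus libraries was analysed from deposited gene and transcript quantifications (mm10, GENCODE M21, per the submitters' listings). Per the file headers, the deposited expected counts are reads estimated for each gene or transcript, with fractions. The deposited TPM, per the file headers, is abundance per length scaled to a fixed sum over all entries. The alignment-based files have the layout of RSEM and the read-based files that of kallisto, per the file headers; not given in the sources used here are the programs, versions, strand setting and interval level.

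Levels are the mean ± SD of gene TPM (n = 2), with detection at 1 TPM or more in both. Ratios were taken for genes with 50 or more expected counts in both libraries. TMM factors came from edgeR 4.0.16 under R 4.3.3 on rounded expected counts, and other steps used Python 3.11.15 with pandas 2.3.3 and numpy 2.4.6. Transcript shares were recomputed from TPM, and shares of counts were added after the data were seen. Copies are genes that share at least 50% of their own 31-base words with a member, over all its transcripts rather than the longest alone as planned. A count of 0 was read as allowing 3 counts, for counting error only. Ratio calls, word sharing and the hairpin search were tested on simulated data. With 1 group no test was made.

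The members and lists were chosen with earlier results of these data known. The genes named are the 9 members and, of the other iron genes, the 3 highest in each list, undetected ones where a list has at most 4, and those 1.2-fold apart the same way in both quantifications; also each member's neighbours in mean TPM, transcripts with a share of at least 10%, and copies with at least 10 counts. A gene that this rule names is not reported here.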

Additional observations from a re-analysis of the deposited data

How the results depend on the processing

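The median member level of 25.5 TPM became 43.5 TPM in the read-based quantification and 61.2 TPM when scaled to nuclear protein-coding genes, and lay between 23.5 and 27.5 TPM with either library left out. Members at least 1.2-fold apart went from 1 to 2 in the read-based values and to 0 on log2(TPM + 1), where Cp was at 0.22. The counts of Ftl1 and its copies that lay on copies went from 46.5% to 43.2% in the read-based values. With shares of counts in place of TPM, an alternative chosen after seeing the data, the median largest transcript share went from 71.3% to 91.1%. With either library left out, that median lay between 62.4% and 84.5% of TPM, the median match share between 65.2% and 96.3%, and detected list genes between 76 and 77. Detection at 0.5 or 5 TPM gave 80 or 61 list genes. With a match of all 5 pairs Slc11a2 held none. No paired analysis was possible because there is only 1 group. Depth limits Slc40a1 and Cp most, where models with fewer than 20 counts hold large TPM shares.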
